A study of Mus musculus with 16 samples.

Results

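The protein kinase complex mTORC1 couples the growth of the liver cell to its supply of amino acids, and the data cover 10 mouse genes that form this complex, restrain it or carry out its work. The 10 genes are Mtor, Rptor, Sesn1, Sesn2, Sesn3, Ddit4, Deptor, Eif4ebp1, Eif4ebp2 and Eif4ebp3. The rule that picks them uses only their names, but the names were chosen with earlier results of these data known. All 10 were found among the 55487 genes of the deposited transcript abundances, given as TPM (a gene's reads over its exon length, as a share of the library). A mean TPM of 1 or more was reached by 9 of them, which were tested together with all 11839 genes above that level. Sesn3, at a mean TPM of 0.88, was below it and was compared by exact permutation tests only.

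Liver RNA was sequenced from 16 male, diet-induced obese C57BL6/J mice in 4 groups of 4, each mouse giving 1 library. Vehicle or G108 was combined with either of 2 high-fat diets, SP with standard protein or HP with high protein, and the groups are called vehicle SP, vehicle HP and, likewise, G108 SP and G108 HP, where G108 is a long-acting analogue of glucagon that acts on the glucagon receptor. The study asked what extra dietary protein does to the response to a low dose of G108. Glucagon is known to raise the use of amino acids by the liver. G108 was given under the skin at 2.5 nmol/kg each day for 22 days, and vehicle in the same way.

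By the sample records, mice were 10 weeks old at the start of a 60 kcal% fat diet, which they ate for 8 weeks before the study. The paper states a younger age, fewer weeks on that first diet and a different last day, so these details are not settled. By the paper, mice were moved to SP or HP in the weeks before the first dose of G108. All mice, controls included, were obese, ate a high-fat diet and were fasted for 4 h before liver was taken. The labels name no transgene or deletion and no batch.

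mTORC1 is built around the kinase encoded by Mtor and the scaffold Raptor encoded by Rptor. Amino acids bring it to the lysosome, where Rag GTPases hold it, and insulin and other growth signals switch it on through the small GTPase RHEB. The Sestrins (Sesn1, Sesn2 and Sesn3) act through the GATOR complexes to keep Rag GTPases inactive when leucine is short, Ddit4 (also called REDD1) restrains RHEB through the TSC complex, and Deptor binds and inhibits the kinase itself. The 4E-BP proteins (Eif4ebp1, Eif4ebp2 and Eif4ebp3) are substrates, and when unphosphorylated, they hold the cap-binding protein eIF4E and block translation. Much of this control is by phosphorylation and protein binding, which messenger RNA levels do not show.

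TPM are shares of a library, so a fall in very abundant transcripts raises all the others. Here the Major Urinary Protein (Mup) genes, secreted proteins that male mouse liver makes in bulk, held 42.6% to 49.7% of TPM in vehicle SP, 35.7% to 44.9% in vehicle HP, 18.3% to 23.0% in G108 SP and 18.2% to 29.6% in G108 HP. Mitochondrial transcripts also held a large share, 13.8% to 24.0% in vehicle SP, 15.2% to 20.7% in vehicle HP, 16.6% to 21.0% in G108 SP and 21.0% to 37.3% in G108 HP. Over the 11839 genes the median log2 fold change was 0.60 for G108 against vehicle on SP, 0.09 on HP, -0.35 for HP against SP with G108, and 0.14 for that diet comparison with vehicle. The median interaction of G108 and diet was -0.49, with 6.61% of genes above 0. Each result is therefore given for TPM as deposited and again after dividing each library by its median ratio to a common reference (median-of-ratios scaling, here scaled TPM), with medians of all genes then between -0.01 and 0.01. Recovered depth was 27.8 to 45.03 M assigned reads per library. Vehicle SP mouse 4 stood apart, with r of log2 values of 0.928 to 0.950 against its group, where the other pairs within groups had 0.956 to 0.989. The 8 hepatocyte markers were abundant in every library, with a summed TPM of at least 16810, while markers of muscle, fat and exocrine pancreas each summed to at most 1.99 TPM.

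On the TPM scale, which allows levels of different genes to be compared per length, the 3 substrates and Deptor were the most abundant members. Mean TPM over the 16 mice was 29.9 for Eif4ebp2, 21.1 for Eif4ebp3, 12.2 for Eif4ebp1 and 10.4 for Deptor. The other members were low, at 2.93 for Mtor, 2.52 for Sesn2, 1.95 for Sesn1, 1.86 for Rptor, 1.83 for Ddit4 and 0.88 for Sesn3. Neighbours in this order were not clearly separated, since Eif4ebp1 ran from 5.59 to 19.4 TPM over the 16 mice and Deptor from 4.10 to 17.2. Reads behind these values were fewest for Ddit4, at 23 to 157 per library, and most for Eif4ebp2, at 3168 to 6573.

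**Figure D1:**
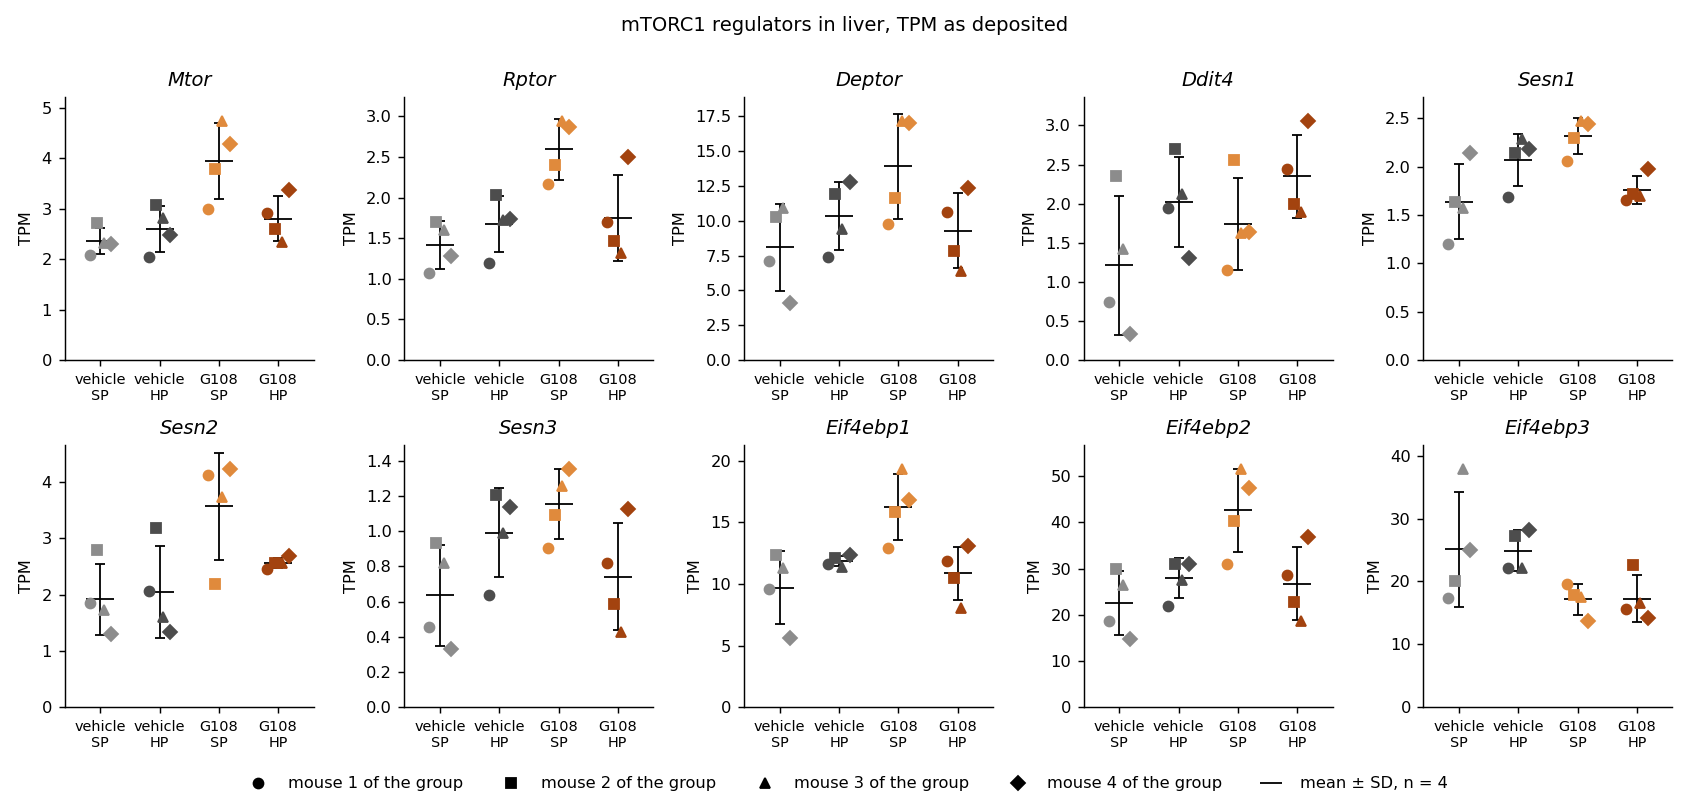
TPM as deposited (vertical axes, from 0) of the 10 mTORC1 regulators in each mouse, by group (horizontal axes). Symbols mark mouse 1 to 4 of each group, which are not the same animals in different groups, and bars give mean ± SD (n = 4). In G108 SP, Mtor lay between 2.99 and 4.74, above all 4 mice of vehicle SP, whereas Eif4ebp3 was at or below 19.6.

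As deposited, 7 of the 9 members tested were higher with G108 than with vehicle on SP, namely Mtor, Rptor, Deptor, Sesn1, Sesn2, Eif4ebp1 and Eif4ebp2, and 0 were lower (limma, Benjamini-Hochberg adjusted p under 0.05). This share is that of the whole transcriptome, in which 77% of genes were called higher and 77.6% were called in either direction. The members' median log2 fold change was 0.58 and that of all genes 0.60. In exact permutation tests of each gene alone, Deptor (p = 0.0857), Sesn1 and Sesn2 (p = 0.0571 each) were not past 0.05. After median-of-ratios scaling only 1 of the 9, Eif4ebp3, was called, and it was lower with G108. There 2.72% of all genes were called and 1.39% were called lower, and the members' median was 0.01. An unadjusted p under 0.05 was reached by 8 of the 9 in TPM, against 79.8% of genes, and by 1 after scaling, against 17.7%. The groups did not overlap in TPM for 4 members, all higher with G108, against 56.4% of genes, and after scaling for 1 member against 9.21% of genes. In bulk liver, fewer cells of a type and less RNA per cell cannot be told apart.

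No member was called in any of the other comparisons on either scale. For G108 against vehicle on HP, 1.11% of genes were called in TPM and 1.22% after scaling, and 1 member had an unadjusted p under 0.05 on each scale, against 11.9% of genes in TPM and 11.3% after scaling. For both diet comparisons (HP against SP, under G108 or vehicle) and for the interaction, 0% of all genes were called on either scale (limma). In this test the absence of member calls is thus that of the whole transcriptome. The paper, which tested with DESeq2, does report a few genes that differed by diet in G108-treated mice, mitochondrial and Mup transcripts among them. At an unadjusted p under 0.05 the members counted 5 for HP against SP with G108, 1 with vehicle and 6 for the interaction in TPM, where 45%, 3.16% and 48% of all genes did. After scaling they counted 1, 1 and 0, against 5.4%, 3.94% and 7.21% of genes. Comparisons that share a group are not independent, since the G108 SP mice enter the comparison with vehicle SP and the one with G108 HP.

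The diet comparisons pointed in opposite ways under the 2 treatments in TPM, as they did for most genes. With G108, 8 of 9 members were below 0 for HP against SP, where 5.55% of all genes were above 0, and with vehicle all 9 were above 0, where 80.4% of all genes were. The median of the members was -0.37 with G108 and 0.23 with vehicle. After scaling the members were split, with 4 above and 5 below 0 with G108 and 6 above and 3 below 0 with vehicle, and medians of -0.03 and 0.10. In TPM the groups did not overlap for 1 member with G108, against 20.7% of genes, and for 0 with vehicle, against 1.47%. After scaling this held for 1 member with G108, against 4.27% of genes, and for 0 with vehicle, against 2.01%.

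**Figure D2:**
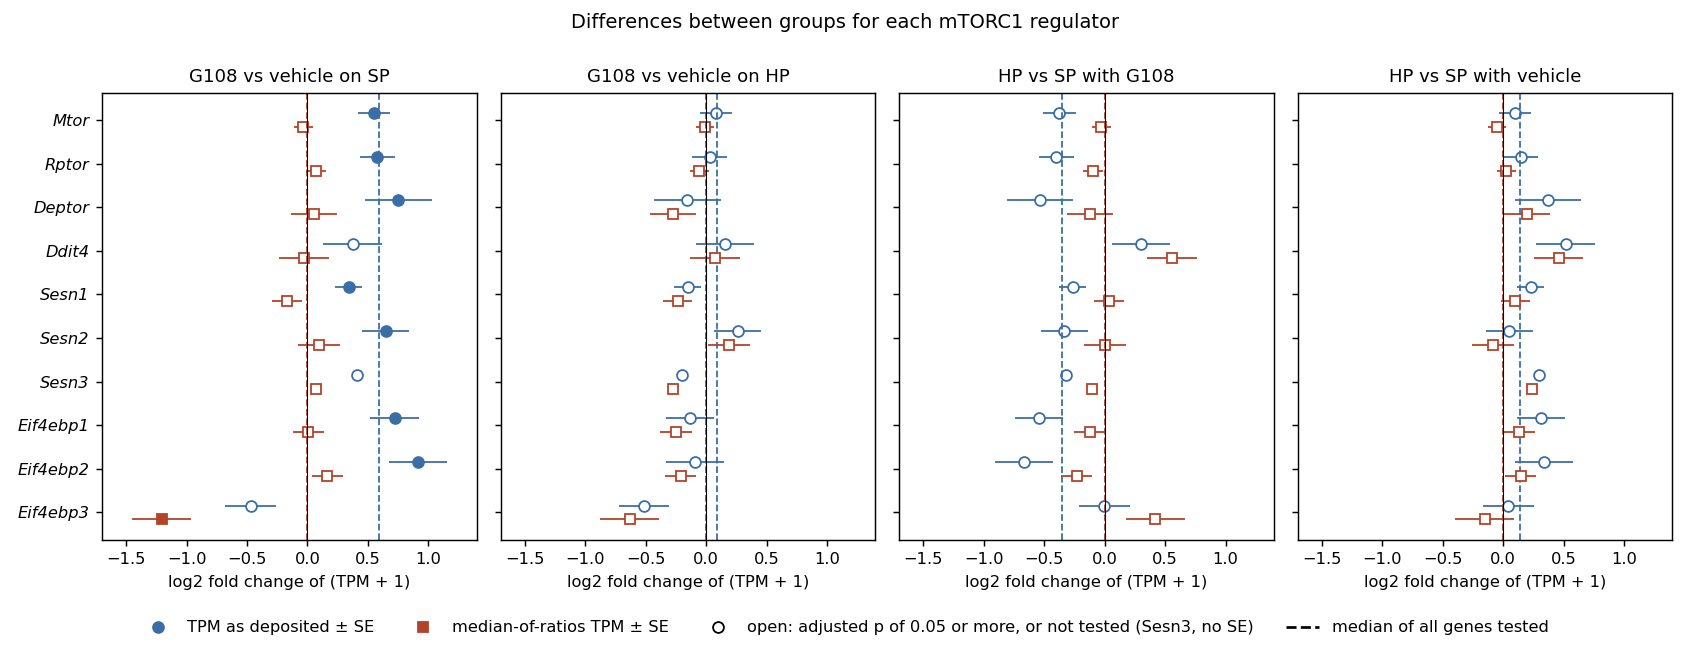
Log2 fold change of (TPM + 1) of each member (horizontal axes) in 4 comparisons, for TPM as deposited (circles) and after median-of-ratios scaling (squares), with bars of 1 SE from limma. Filled symbols are called at an adjusted p under 0.05, and dashed lines give the median of all 11839 genes. On SP the circles gather around the dashed line at 0.60 and among the squares only that of Eif4ebp3, at -1.21, is filled.

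Mtor encodes the kinase of the complex (ENSMUSG00000028991, GRCm38 chromosome 4, 148448611 to 148557683, plus strand). Its TPM were 2.09, 2.72, 2.33 and 2.29 in the 4 mice of vehicle SP, 2.04, 3.08, 2.81 and 2.48 in vehicle HP, 2.99, 3.79, 4.74 and 4.28 in G108 SP and 2.92, 2.60, 2.34 and 3.37 in G108 HP. All 4 mice of G108 SP were above vehicle SP, while G108 SP and G108 HP overlapped. G108 raised Mtor on SP by a log2 of 0.55 ± 0.13 (SE, adjusted p = 0.00305, limma), a little under the shift of all genes, and after scaling the difference was -0.03 ± 0.08 (adjusted p = 0.818, limma). On HP the difference was 0.08 ± 0.13 in TPM and -0.01 ± 0.08 after scaling. HP against SP gave -0.37 ± 0.13 with G108 (adjusted p = 0.0783, limma) and 0.10 ± 0.13 with vehicle in TPM, and -0.03 ± 0.08 and -0.05 ± 0.08 after scaling. Scaled Mtor levels were narrow, with means of 2.95 ± 0.32, 2.81 ± 0.27 with vehicle on SP and HP, and 2.86 ± 0.22 and 2.78 ± 0.05 with G108 (SD, n = 4).

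Rptor, the scaffold that presents substrates to the kinase, had a similar pattern of values. Its TPM ran from 1.07 to 1.70 in vehicle SP, 1.2 to 2.04 in vehicle HP, 2.17 to 2.94 in G108 SP and 1.32 to 2.50 in G108 HP. G108 SP lay above vehicle SP without overlap and overlapped with G108 HP. The difference for G108 on SP was 0.58 ± 0.14 in TPM (adjusted p = 0.00358, limma) and 0.07 ± 0.08 after scaling (adjusted p = 0.648, limma). HP against SP gave -0.40 ± 0.14 with G108 in TPM (adjusted p = 0.0785, limma) and -0.10 ± 0.08 after scaling. With vehicle it gave 0.15 ± 0.14 and 0.03 ± 0.08.

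Deptor, the inhibitor bound to the kinase, varied more between mice. Its TPM were 7.09, 10.3, 10.9 and 4.10 in vehicle SP, 7.40, 11.9, 9.40 and 12.8 in vehicle HP, 9.79, 11.6, 17.2 and 17.1 in G108 SP and 10.6, 7.80, 6.42 and 12.3 in G108 HP. The lowest value was that of vehicle SP mouse 4, and the groups overlapped in every comparison. G108 raised it on SP by 0.75 ± 0.27 in TPM (adjusted p = 0.0216, limma, two-sided exact permutation p = 0.0857), against 0.05 ± 0.19 after scaling. This call was lost without vehicle SP mouse 4 (0.50, adjusted p = 0.0808, limma), and also without vehicle SP mouse 1, G108 SP mouse 3 or G108 SP mouse 4 (0.65 to 0.72, adjusted p = 0.0505 to 0.0661, limma). HP against SP gave -0.54 ± 0.27 with G108 and 0.37 ± 0.27 with vehicle in TPM, and -0.12 ± 0.19 and 0.20 ± 0.19 after scaling, with adjusted p of at least 0.131 (limma).

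Ddit4, a stress-induced inhibitor that hormones, fasting and low amino acids are known to induce, had the highest HP to SP difference of the members under both treatments and on both scales. Its promoter is shown because its diet groups with G108 did not overlap after scaling, though they did in TPM. Beside it is that of Eif4ebp2, the member with the largest interaction of G108 and diet in TPM. Both windows end just after the RefSeq start site (GRCm38.p6, minus strand, chr10:59951721-59952020 for Ddit4 and chr10:61452620-61452919 for Eif4ebp2), and capitals mark a match to TGACG, the core letters of the cAMP response element (CRE), or its reverse complement.
Ddit4: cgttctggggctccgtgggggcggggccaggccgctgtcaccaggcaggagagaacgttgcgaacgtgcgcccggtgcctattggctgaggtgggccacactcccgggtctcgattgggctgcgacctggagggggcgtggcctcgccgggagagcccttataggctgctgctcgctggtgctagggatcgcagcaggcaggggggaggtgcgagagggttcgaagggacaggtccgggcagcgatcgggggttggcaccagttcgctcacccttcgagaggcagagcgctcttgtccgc
Eif4ebp2: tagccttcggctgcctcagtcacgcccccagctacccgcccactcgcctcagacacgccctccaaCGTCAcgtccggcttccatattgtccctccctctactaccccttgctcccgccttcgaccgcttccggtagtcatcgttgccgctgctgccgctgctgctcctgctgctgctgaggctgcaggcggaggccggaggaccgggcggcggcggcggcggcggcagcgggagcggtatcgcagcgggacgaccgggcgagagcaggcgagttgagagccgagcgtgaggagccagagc
RefSeq promoters of 7 of the 10 members were searched, with 2 for Sesn1, and those of the other members were not. The CRE core occurred at -185 in Eif4ebp2, at -179 in Rptor and at -61 in the second promoter of Sesn1, and in 20.8% of 32851 mouse promoters of the same length. The full CRE (1.79% of promoters), the C/EBP-ATF element (TGATGNAAN, 3.95%) and a glucocorticoid receptor motif (TGTTCT, 19% of promoters) were searched on both strands and not found in these 8 windows. The core is part of the full CRE. A match is a description of letters only.

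Ddit4 (ENSMUSG00000020108, chromosome 10, 59949669 to 59951834, minus strand) had TPM of 0.736, 2.36, 1.43 and 0.332 in vehicle SP, 1.94, 2.70, 2.13 and 1.31 in vehicle HP, 1.15, 2.55, 1.62 and 1.64 in G108 SP and 2.45, 2.00, 1.89 and 3.06 in G108 HP. The groups overlapped in TPM. After scaling it stood at 0.984, 1.93, 1.06 and 1.12 in G108 SP and 2.39, 2.12, 2.26 and 2.47 in G108 HP, so that all 4 HP mice were above all 4 SP mice. With vehicle, scaled values were 1.06, 2.45, 1.60 and 0.488 on SP and 2.33, 2.53, 2.33 and 1.5 on HP, which overlapped.

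HP against SP differed for Ddit4 by 0.30 ± 0.24 in TPM with G108 and 0.56 ± 0.21 after scaling (unadjusted p = 0.0161, adjusted p = 0.841, limma, two-sided exact permutation p = 0.0286, the smallest that 4 mice against 4 allow). With vehicle the differences were 0.52 ± 0.24 in TPM (unadjusted p = 0.0492, adjusted p = 0.727, limma) and 0.46 ± 0.21 after scaling (unadjusted p = 0.0424, adjusted p = 0.832, limma), which were 0.30 and 0.25 without vehicle SP mouse 4. None passed the adjustment over all genes, and on both scales Ddit4 was higher on HP than on SP in its group mean under both treatments. G108 against vehicle gave 0.37 ± 0.24 on SP and 0.16 ± 0.24 on HP in TPM, and -0.03 ± 0.21 and 0.07 ± 0.21 after scaling. Without vehicle SP mouse 2 the SP difference in TPM passed the threshold (0.60, adjusted p = 0.0212, limma), while without vehicle SP mouse 4 it was 0.16 (adjusted p = 0.518, limma) and without G108 SP mouse 2 it was 0.24 (adjusted p = 0.389, limma). With its 23 to 157 reads per library, counting error adds to the spread of this gene. Of the 8 blood cell markers, 5 were tested and 0 called for diet in the G108 mice on either scale (limma). An unadjusted p under 0.05 was reached by 1 in TPM and 2 after scaling, where 45% and 5.4% of all genes had one. Their summed scaled TPM with G108 was 656.8 to 919.6 on SP and 986.7 to 2389 on HP, against 843.4 to 3095 and 997.6 to 1307 with vehicle. Their part in the Ddit4 values was not tested.

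Of the Sestrins, Sesn1 (TPM 1.2 to 2.14 in vehicle SP, 1.68 to 2.29 in vehicle HP, 2.06 to 2.47 in G108 SP and 1.66 to 1.98 in G108 HP) was the only member whose G108 groups did not overlap between diets in TPM, with all HP mice below all SP mice. The difference was -0.26 ± 0.11 (adjusted p = 0.0941, limma, two-sided exact permutation p = 0.0286), and after scaling it was 0.04 ± 0.12 with overlap. G108 raised Sesn1 on SP by 0.34 ± 0.11 in TPM (adjusted p = 0.0131, limma, two-sided exact permutation p = 0.0571), less than the shift of all genes, and after scaling the sign turned to -0.17 ± 0.12 (adjusted p = 0.457, limma). On HP the scaled difference was -0.24 ± 0.12 (adjusted p = 0.509, limma). The interaction in TPM, -0.49 ± 0.16, had an adjusted p of 0.0799 (limma), and the median interaction of all genes was also -0.49. After scaling the Sesn1 interaction was -0.06 ± 0.17.

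Sesn2, the leucine-binding Sestrin that ATF4 and p53 are known to induce, had TPM of 1.85, 2.79, 1.72 and 1.30 in vehicle SP, 2.06, 3.18, 1.61 and 1.33 in vehicle HP, 4.13, 2.19, 3.73 and 4.24 in G108 SP and 2.45, 2.56, 2.56 and 2.68 in G108 HP. G108 SP was the highest group but overlapped with vehicle SP through mouse 2. G108 raised it on SP by 0.65 ± 0.20 in TPM (adjusted p = 0.00853, limma, two-sided exact permutation p = 0.0571), which was 0.10 ± 0.17 after scaling (adjusted p = 0.767, limma). HP against SP gave -0.33 ± 0.20 with G108 and 0.05 ± 0.20 with vehicle in TPM, and 0.00 ± 0.17 and -0.08 ± 0.17 after scaling.

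Sesn3, a Sestrin under FOXO control in other settings, was the lowest member, at 0.636 ± 0.287 TPM in vehicle SP, 0.992 ± 0.252 in vehicle HP, 1.15 ± 0.198 in G108 SP and 0.741 ± 0.304 in G108 HP (SD, n = 4). Its groups overlapped in every comparison. Its interaction was -0.61 in TPM (two-sided exact permutation p = 0.0155 over 4900 relabellings), beside a median of -0.49 for the genes tested. After scaling it was -0.34 (exact permutation p = 0.0433), beside 0.01. The relabellings swapped G108 and vehicle within each diet. Their p is therefore exact for no G108 difference on either diet, not for the interaction alone. In TPM the exact permutation p was smaller for Sesn1 (0.0049) and Eif4ebp1 (0.0106). These p are unadjusted among 50 exact tests on each scale, of which 9 in TPM and 4 after scaling had a p under 0.05. With no filter on low values its interaction had an adjusted p of 0.169 (limma).

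**Figure D3:**
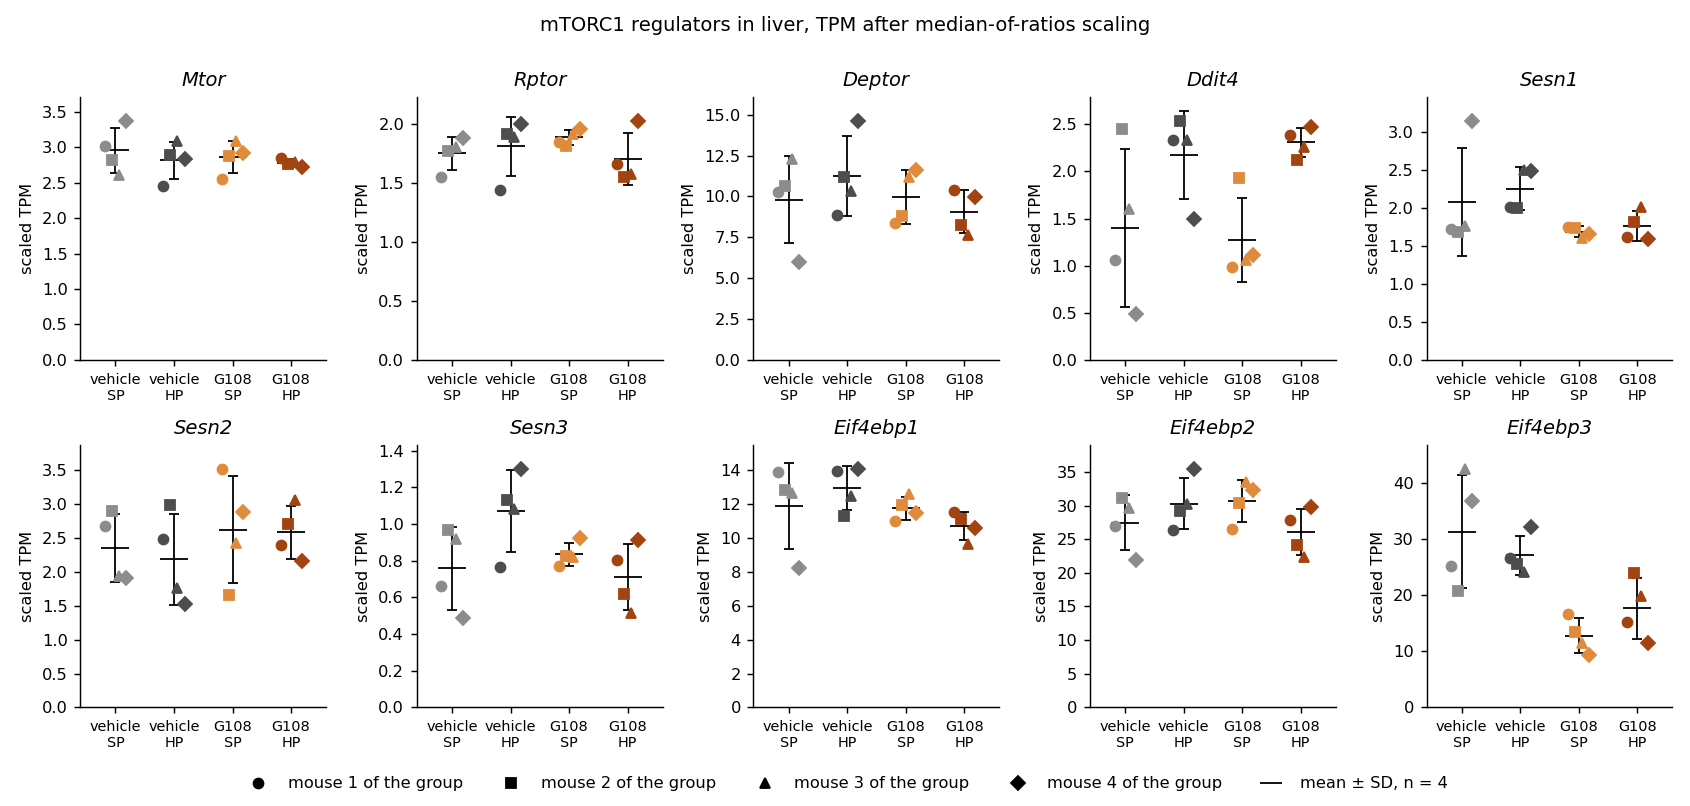
The 10 members after median-of-ratios scaling (vertical axes, scaled TPM from 0) in each mouse, by group (horizontal axes), with symbols for mouse 1 to 4 and mean ± SD (n = 4). Eif4ebp3 lies at 9.37 to 16.7 in G108 SP against 20.8 to 42.6 in vehicle SP, and Ddit4 at 2.12 to 2.47 in G108 HP against 0.984 to 1.93 in G108 SP.

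Eif4ebp1, the most studied translation repressor of the family, had TPM of 9.62, 12.4, 11.3 and 5.59 in vehicle SP, 11.6, 12.1, 11.4 and 12.3 in vehicle HP, 12.9, 15.8, 19.4 and 16.8 in G108 SP and 11.8, 10.5, 8.08 and 13.1 in G108 HP. All mice of G108 SP exceeded all mice of vehicle SP, and mouse 1 of G108 SP was just under mouse 4 of G108 HP. The difference for G108 on SP was 0.72 ± 0.20 in TPM (adjusted p = 0.00566, limma) and 0.01 ± 0.13 after scaling (adjusted p = 0.980, limma). HP against SP gave -0.54 ± 0.20 with G108 (adjusted p = 0.0799, limma) and 0.31 ± 0.20 with vehicle in TPM, and -0.12 ± 0.13 and 0.13 ± 0.13 after scaling. Its interaction in TPM was -0.85 ± 0.28 (adjusted p = 0.0799, limma), beside a median of -0.49 for all genes. After scaling it was -0.26 ± 0.18, beside 0.01.

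Eif4ebp2 (ENSMUSG00000020091, chromosome 10, 61428491 to 61452661, minus strand), the most abundant 4E-BP transcript here, had TPM of 18.7, 30.0, 26.4 and 14.9 in vehicle SP, 22.0, 31.1, 27.6 and 31.02 in vehicle HP, 31.01, 40.2, 51.6 and 47.4 in G108 SP and 28.6, 22.8, 18.8 and 36.8 in G108 HP. G108 SP was above vehicle SP in every mouse and overlapped with G108 HP. G108 raised it on SP by 0.92 ± 0.24 in TPM (adjusted p = 0.00435, limma), the largest rise of a member, and the difference was 0.16 ± 0.13 after scaling (adjusted p = 0.4998, limma). On HP it was -0.09 ± 0.24 in TPM and -0.21 ± 0.13 after scaling. HP against SP with G108 gave -0.67 ± 0.24 in TPM (adjusted p = 0.0785, limma) and -0.23 ± 0.13 after scaling (adjusted p = 0.858, limma). The interaction was -1.004 ± 0.34 in TPM (adjusted p = 0.0799, limma), beside a median of -0.49 for all genes. After scaling it was -0.38 ± 0.18 (unadjusted p = 0.0604, limma), beside 0.01.

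Eif4ebp3 (ENSMUSG00000090264, chromosome 18, 36664060 to 36665917, plus strand) is the third 4E-BP gene. Its TPM were 17.4, 20.01, 37.9 and 25.0 in vehicle SP, 22.2, 27.2, 22.1 and 28.1 in vehicle HP, 19.6, 17.9, 17.6 and 13.7 in G108 SP and 15.6, 22.6, 16.7 and 14.2 in G108 HP. The G108 groups were lower in their means, 17.2 ± 2.48 against 25.1 ± 9.12 on SP and 17.3 ± 3.68 against 24.9 ± 3.23 on HP (SD, n = 4), with overlap on both diets. The difference for G108 was -0.47 ± 0.21 on SP (adjusted p = 0.0515, limma) and -0.51 ± 0.21 on HP (adjusted p = 0.324, limma), on a scale on which 96.4% and 70.4% of all genes were above 0. The SP difference passed the threshold without vehicle SP mouse 1 or 2, G108 SP mouse 1 or G108 HP mouse 2 (-0.62 to -0.47, adjusted p = 0.0220 to 0.0461, limma), and was -0.26 without vehicle SP mouse 3 (adjusted p = 0.207, limma). On HP all 3 4E-BP genes were below 0 with G108 on both scales, as were Deptor and Sesn1. Of the 9 members tested, 5 were below 0 in TPM and 7 after scaling, where 49.2% of all genes were above 0. None of them was called on HP on either scale (limma). Differences between the 3 4E-BP genes were not tested.

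After scaling, Eif4ebp3 stood at 25.2, 20.8, 42.6 and 36.8 in vehicle SP, 26.6, 25.5, 24.2 and 32.2 in vehicle HP, 16.7, 13.52, 11.4 and 9.37 in G108 SP and 15.3, 23.9, 19.9 and 11.5 in G108 HP. Every G108 mouse was below every vehicle mouse of its diet. The non-overlap on HP held for this 1 member, against 8.15% of genes after scaling, and in TPM for 0 members, against 8.88%. G108 lowered it on SP by a log2 of -1.21 ± 0.24 (adjusted p = 0.0143, limma, two-sided exact permutation p = 0.0286), and on HP the difference was -0.63 ± 0.24 (unadjusted p = 0.0199, adjusted p = 0.291, limma). The SP call was lost without G108 SP mouse 3 (-1.17, adjusted p = 0.0538, limma) or mouse 4 (-1.08, adjusted p = 0.0593, limma). Diet gave 0.42 ± 0.24 with G108 and -0.15 ± 0.24 with vehicle, with adjusted p of at least 0.858 (limma), and the interaction was 0.57 ± 0.34 (unadjusted p = 0.116, limma), so the sizes on SP and HP were not shown to differ.

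The reads of Eif4ebp3 are uncertain in part. Of its 744 exon bases, 501 (67.3%) are also exon of the longer protein-coding gene AC115631.1 on the same strand, and how the counting split such reads is not stated. AC115631.1 had a mean of 13.8 TPM. Its scaled values were lower with G108 on SP without overlap, 10.5 ± 1.70 against 18.1 ± 5.40 (SD, n = 4), with a log2 difference of -0.70 ± 0.20 (adjusted p = 0.0928, limma). On HP it differed by -0.30 ± 0.20 (adjusted p = 0.668, limma). Of the 8 endothelial markers, 7 were tested and 0 were called on SP after scaling (limma, 4 with an unadjusted p under 0.05, where 17.7% of all genes had one), with a summed scaled TPM of 19.7 to 24.2 in G108 SP and 25.5 to 31.1 in vehicle SP. Their part in the Eif4ebp3 values was not tested.

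The other genes of the pathway were counted in the same way. In 5 lists of mTORC1 genes outside the 10 members (complex partners, Rag GTPases and Ragulator, GATOR complexes with amino acid sensors, TSC with RHEB and upstream kinases, and effectors), 51 of 61 genes were tested. With G108 on SP, 45 of the 51 were higher and 0 lower in TPM, against 77% of all genes called higher, with a median of 0.66 beside 0.60 for all genes, and 0 of the 51 were called after scaling (limma, 10 with an unadjusted p under 0.05, against 17.7% of genes), with a median of -0.03. Among those with the largest rise in TPM were Rraga (1.19 ± 0.34) and Rragc (0.93 ± 0.16), which encode Rag GTPases, and the effectors Eif4g1 (0.96 ± 0.28) and Larp1 (0.93 ± 0.19), a translation factor and a regulator of ribosomal protein messages. The kinase genes Akt2 (0.99 ± 0.20) and Akt1 (0.94 ± 0.26), which carry the insulin signal, and the partner genes Mapkap1 (0.83 ± 0.24) and Akt1s1 (0.72 ± 0.15) were also called higher. After scaling these 8 differences were at most 0.51, with adjusted p of at least 0.147 (limma).

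Nprl2, a subunit of the GATOR complex that restrains Rag GTPases, was the only 1 of the 51 called on HP. Of all genes, 1.11% were called there in TPM and 1.22% after scaling. Nprl2 rose with G108 from 5.32 ± 0.717 to 8.32 ± 1.14 TPM (SD, n = 4), a log2 of 0.56 ± 0.12 (adjusted p = 0.0396, limma), and by 0.45 ± 0.09 after scaling (adjusted p = 0.0337, limma). On SP it rose from 4.98 ± 0.516 to 9.82 ± 0.903 TPM, a log2 of 0.86 ± 0.12 (adjusted p = 3.17e-04, limma), and after scaling the difference was 0.18 ± 0.09 (adjusted p = 0.334, limma). For diet, 0 of the 51 were called with G108 or with vehicle on either scale (limma), with 26 and 1 under an unadjusted p of 0.05 in TPM, near the 45% and 3.16% of all genes, and 3 and 3 after scaling, where 5.4% and 3.94% of genes did. For HP against SP with G108 the list medians were -0.36 in TPM and -0.01 after scaling.

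**Figure D4:**
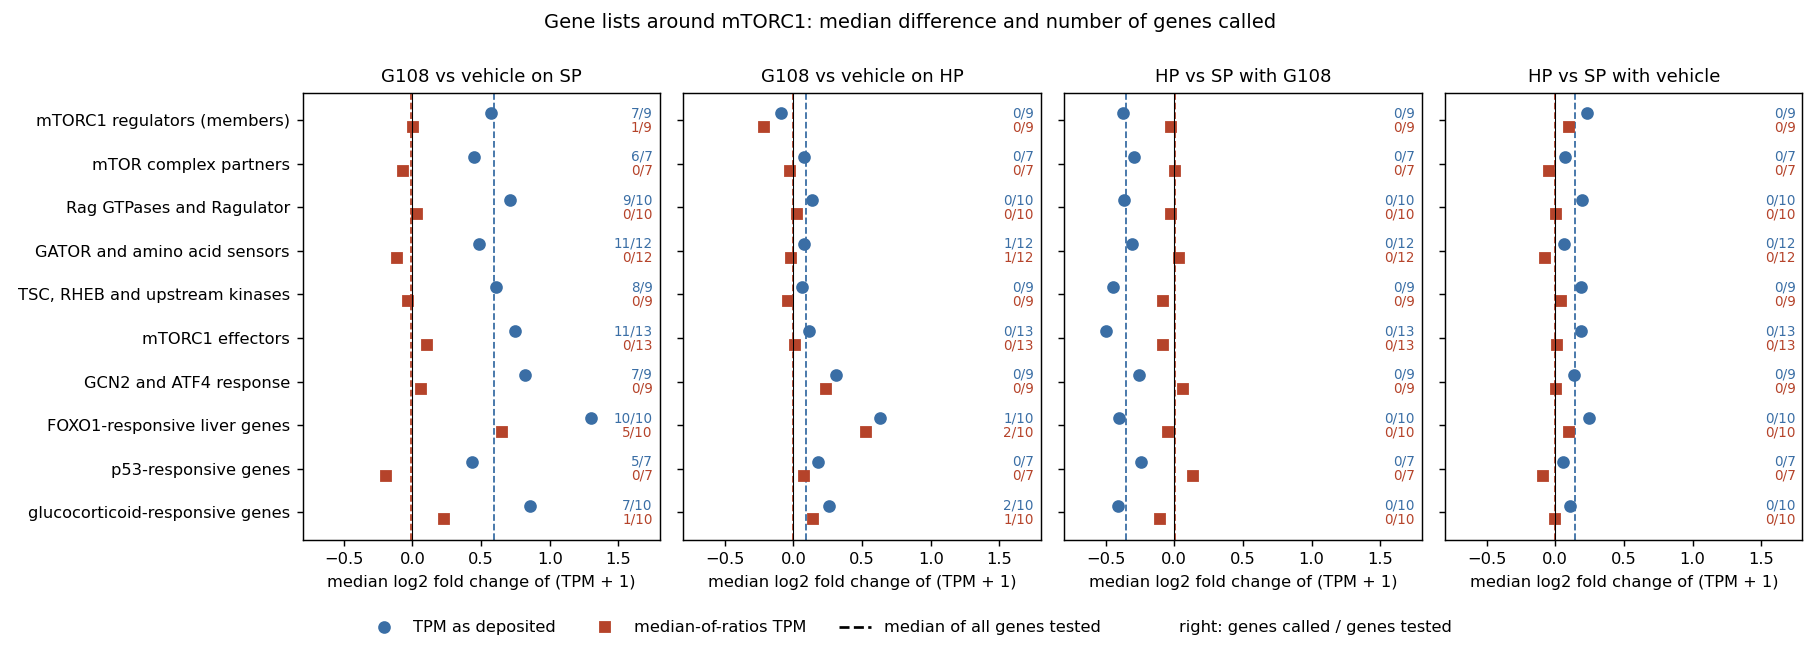
Median log2 fold change of (TPM + 1) (horizontal axes) of the members and of 9 gene lists in 4 comparisons, in TPM (circles) and after scaling (squares), with dashed lines at the median of all genes and the number of genes called of those tested at the right. On SP the mTORC1 lists sit near the dashed line on both scales, and the FOXO1-responsive genes lie at 1.30 and 0.65. All lists were chosen with earlier results of these data known.

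Lists named after signals upstream of the members were set beside them. They are to be read against all genes with G108 on SP, of which 77% were called higher in TPM. After scaling 2.72% were called in either direction. The lists were chosen with earlier results of these data known, so their counts are a description only. The name of a list does not show which signal acted, and this was not tested. The FOXO1-responsive liver genes had the highest list median with G108 on SP, with 10 of 10 higher in TPM and 5 of 10 higher after scaling (median 0.65, beside -0.01 for all genes). The 5 were Pck1 (scaled log2 1.70 ± 0.38) and G6pc (1.09 ± 0.25), enzymes of gluconeogenesis, Igfbp1 (1.36 ± 0.23), a binding protein of insulin-like growth factors, and the regulators Ppargc1a (0.89 ± 0.14) and Klf15 (0.50 ± 0.10). On HP, 2 of 10 were higher after scaling, Ppargc1a (0.66 ± 0.14, adjusted p = 0.0337, limma) and Klf15 (0.47 ± 0.10, adjusted p = 0.0415, limma). In TPM 1 of 10, Ppargc1a, was called on HP. Of all genes, 1.11% were called on HP in TPM and 1.22% after scaling.

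For the GCN2 and ATF4 response, the arm that senses uncharged transfer RNA, 7 of 9 tested genes were higher in TPM with G108 on SP, near the 77% of all genes, and 0 of 9 after scaling (limma, 4 with an unadjusted p under 0.05, against 17.7% of genes). The largest differences were in Cth, an enzyme of transsulfuration (1.90 ± 0.36 in TPM, and 1.14 ± 0.32 with adjusted p = 0.0790 after scaling, limma), and Atf5, a stress transcription factor (1.77 ± 0.38, and 0.998 ± 0.31 with adjusted p = 0.109 after scaling, limma). Fgf21 (0.98 ± 0.37) and Gdf15 (0.95 ± 0.37), stress hormones secreted by liver, were called higher in TPM only. Of the glucocorticoid-responsive genes, 7 of 10 were higher in TPM on SP, a share below that of all genes, and 1 of 10 after scaling. That gene was Sgk1, a kinase related to Akt, which after scaling rose by 0.84 ± 0.14 on SP (adjusted p = 0.00497, limma) and 1.08 ± 0.14 on HP (adjusted p = 0.00929, limma). Dusp1, Per1 and Klf9 were higher in TPM on SP (1.44 ± 0.31, 1.11 ± 0.17 and 0.80 ± 0.25), and Per1 on HP also (0.89 ± 0.17). Of the p53-responsive genes, 5 of 7 were higher in TPM on SP, also below the share of all genes, Trp53inp1 (0.86 ± 0.19) and Ccng1 (0.78 ± 0.23) among them, and 0 of 7 after scaling (limma, 1 with an unadjusted p under 0.05, against 17.7% of genes).

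In none of these 4 lists was a gene called for HP against SP with either treatment on either scale (limma). At an unadjusted p under 0.05, FOXO1-responsive genes counted 6 of 10 with G108 and 2 of 10 with vehicle in TPM, where 45% and 3.16% of all genes did, and 0 and 1 after scaling, against 5.4% and 3.94%. In the same order, GCN2 and ATF4 genes counted 0 and 2 of 9 in TPM, and 0 and 1 after scaling. Glucocorticoid-responsive genes counted 2 and 1 of 10 in TPM, and 2 and 0 after scaling. For p53-responsive genes it was 1 and 0 of 7 in TPM, and 0 and 0 after scaling.

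The receptor that G108 acts on, Gcgr, was abundant and not called in any comparison. Its TPM were 114.4, 147.7, 131.3 and 278.3 in vehicle SP, 121.3 to 169.8 in vehicle HP, 154.2 to 226.8 in G108 SP and 140.5 to 171.8 in G108 HP. Vehicle SP mouse 4 was the highest. G108 against vehicle gave 0.19 ± 0.23 on SP in TPM (adjusted p = 0.446, limma) and -0.58 ± 0.30 after scaling (adjusted p = 0.318, limma).

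Across the 16 libraries, the gene whose scaled level was most like that of Eif4ebp2 was Sh3d19 (Pearson's r = 0.965 on log2 values), and that of Deptor was Prkaa2, a catalytic subunit of the energy-sensing kinase AMPK (r = 0.949). For Eif4ebp3 it was AC115631.1 (r = 0.944), with which it shares exon bases, followed by Ip6k2 (r = 0.900). For Rptor it was Tmem8 (r = 0.897), for Sesn1 Plxnb2 (r = 0.906), for Eif4ebp1 Tm4sf4 (r = 0.890), for Mtor Gm44759 (r = 0.871), and for Ddit4 and Sesn2 it was Tm7sf2 and Tuba4a (r = 0.804 each). The second neighbours were Zc3h18 for Mtor, Abca6 for Rptor, Ugt3a2 for Deptor, Sap30l for Ddit4, Nod1 for Sesn1, Saysd1 for Sesn2, Immp1l for Eif4ebp1 and Pzp for Eif4ebp2, with r of 0.788 to 0.958. These values describe 16 libraries in 4 groups that share depth, base composition and treatment, and were picked as the highest of 11839 genes. Among the members themselves, r of the 36 pairs ran from -0.525 to 0.955 in TPM with a median of 0.533, and from -0.455 to 0.879 with a median of -0.12 after scaling.

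With G108 SP mouse 1, G108 HP mouse 4 or vehicle SP mouse 4 left out, HP against SP with G108 passed the threshold in TPM for 4, 4 and 1 members, all lower on HP, when 2990, 5016 and 1724 of the 11839 genes were also called lower. The interaction passed for 4, 5 and 6 members without vehicle SP mouse 2, G108 SP mouse 1 and G108 HP mouse 4, with 3456, 3938 and 5177 genes called lower. After scaling, no such call appeared for any member with any library left out (limma).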

How the data were processed

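Per the labels and the paper's methods, the authors checked reads with FastQC 0.11.8, aligned them to GRCm38 with HISAT2 2.0.5, counted reads per gene with featureCounts and deposited TPM, that is reads over exon length scaled to the same total in every library. For differences between groups the authors used DESeq2 1.36.0, which was not run here. All 16 columns were used, mapped to mice by the sample records. The counting setting for overlapping genes and strand was not given in the sources used here.

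The 10 members were matched by gene identifier to the GENCODE annotation of GRCm38, which gave 55227 of 55487 genes a symbol and an exon length. The members and gene lists were chosen with earlier results of these data known. log2(TPM + 1) of the 11839 genes that reached a mean TPM of 1 was fitted in limma 3.58.1 (R 4.3.3) with a mean for each group and a variance trend on level, Benjamini-Hochberg adjustment ran over these genes, and calls were made at an adjusted p under 0.05. Fold changes on this scale understate those of low genes. Median-of-ratios factors came from 11591 genes. Single genes were also compared in exact permutation tests (two-sided), in which 70 relabellings of 4 mice against 4 allow no p below 0.0286. For the interaction, treatment was relabelled within each diet (4900 relabellings), which is exact for no G108 difference on either diet. The labels do not say whether mice of a group shared a litter or cage.

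Low values lay on steps of 1 read (98.8% of 139184 values with at most 20 reads were within 0.02 of a whole read), which gave the depth of each library. Depth limits Ddit4 most. Mouse numbers of the labels were checked as possible pairs, and same-numbered mice were no more alike than others.

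Named are the 10 members, up to 4 called genes per list and comparison (first those also called after scaling, then by size), the 2 genes most like each member by Pearson's r of scaled log2 values, and Gcgr. Klf15 is named beside a count of 5, and AC115631.1 for its overlap, both chosen after their values were seen. Alternatives were a pseudocount of 0.1, no filter, a minimum mean TPM of 5, scaling by median of ratios alone and with GC slope, TPM rescaled without mitochondrial and Mup genes, only the groups compared, a mouse number block, array weights, voom on recovered reads and each library left out. Promoters came from RefSeq (GRCm38.p6), and motifs were searched on both strands. Those of Deptor, Eif4ebp1 and Eif4ebp3 were not searched, so presence or absence of a motif there is not known.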

Additional observations from a re-analysis of the deposited data

Results flagged for a closer look

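Each member was examined for a mouse far from the other 3 of its group, in 80 groups of 4 values (10 members, 4 groups, both scales), of which chance alone would mark about 1 in 20. After median-of-ratios scaling, Ddit4 in G108 SP mouse 2 stood at 1.93 scaled TPM, where the other 3 mice lay between 0.984 and 1.12. Sesn1 in vehicle SP mouse 4 stood at 3.15 scaled TPM, where the other 3 lay between 1.69 and 1.77. Vehicle SP mouse 4 is also the library least like its group and the highest for Gcgr.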

How the results depend on the processing

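Counts of members called with G108 against vehicle on SP were 7 in TPM, 4 with a mean TPM of at least 5, where fewer members were tested, and 1 each with median-of-ratios scaling, with that scaling and the GC slope, and with TPM rescaled without mitochondrial and Mup genes. Genes called higher were 9113 of 11839 in TPM and 4427 of 5360 with a mean TPM of at least 5. Under the last 3 settings 158, 910 and 119 genes were called higher and 164, 820 and 150 lower, of 11839, 11839 and 11751. The sign of Mtor turned from 0.55 to -0.034, -0.063 and -0.077 under these 3 settings in the same order, that of Sesn1 from 0.34 to -0.17, -0.24 and -0.25, and that of Eif4ebp1 to -0.031 under the rescaling alone. Array weights called 6 members for HP against SP with G108, 1 with vehicle, 1 for G108 on HP and 6 for the interaction, and called 8415 genes lower in the first of these and 7183 in the last. With vehicle they called 53 of 11839 genes higher and 26 lower, and for G108 on HP 1792 higher and 334 lower. The cause was not tested. Leaving out single libraries, the members called ranged from 0 to 4 for HP against SP with G108, 0 to 6 for the interaction, 6 to 9 for G108 on SP, and 0 to 1 for G108 on SP after scaling. Of the 11839 genes, 0 to 5016 were called lower in the first of these and 0 to 5177 in the second. For G108 on SP 7770 to 9289 were called higher, and after scaling 74 to 230 higher and 84 to 243 lower. With voom on recovered reads Sesn1 lost its call on SP (0.34, adjusted p = 0.0915) and Eif4ebp3 gained one (-0.69, adjusted p = 0.0160), with no filter Deptor lost its call (adjusted p = 0.0555), and with a mean TPM of 5 Eif4ebp3 gained one (adjusted p = 0.0472). A pseudocount of 0.1 and a fit of only the groups compared changed no call of a member. Same-numbered mice of different groups were no more alike than others (r of deviations from -0.575 to 0.527 over 24 pairs of libraries, median -0.03). Pairs of different number had r from -0.546 to 0.62 (72 pairs, median 0.02). What the number stands for is not given. With it as a replicate block 7 members were called for G108 on SP in TPM, 1 after scaling and 0 elsewhere, while genes called for G108 on HP went from 132 to 71. With that block 8882 of the 11839 genes were called higher for G108 on SP in TPM, and after scaling 96 were called higher and 117 lower. Depth limits Ddit4, with 23 reads in its lowest library.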
